A study of Arabidopsis thaliana with 6 samples.

Results

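AT1G51850 and AT3G46280 are receptor kinase-related genes of Arabidopsis thaliana, and each was measured by 1 probe set of the Affymetrix ATH1 array. They were chosen by name, with their values on these arrays already known, and are 2 of 13286 loci named in a table of 22746 probe sets. Their levels, their correlation and their differences between the genotypes are therefore given as a description, without a test. Shoots of 3-week-old seedlings were profiled on 6 arrays, 3 of EBE-XVE line 14 in Col-0 and 3 of wild-type (WT) Col-0. EBE-XVE is 1 transgenic line in which β-estradiol induces EBE (locus AT5G61890), which encodes an AP2/ERF transcription factor. Both genotypes were moved to shaken liquid medium for 16 h and then received 2 µM β-estradiol for 45 min, so no group was without estradiol. A difference between the line and Col-0 cannot be told apart from an effect of induced EBE.

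AT1G51850, also known as SIF2, encodes a receptor kinase of the leucine-rich-repeat subfamily LRR I. These proteins carry a malectin-like domain and a few leucine-rich repeats outside the cell, a membrane span and a kinase domain inside it. Many members of the subfamily lie in tandem arrays on the chromosome, and several, such as FRK1, are known as genes that plants switch on quickly when they perceive bacterial flagellin. AT3G46280 is annotated as a kinase-related gene with a malectin-like domain and lies next to HERK1, a receptor kinase gene of growth control.

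The labels' shoot origin was checked against marker genes. Here and below, a gene is called measured where a probe set with a single symbol matched its locus. Other genes may still have a probe set among the 8730 without a name. All 3 measured shoot markers of 9 listed, the photosynthesis genes RCA, PSAN and LHCB4.1, read 11.99 or more on every array. Of 3 measured root markers of 9 listed, EXPA7 and EXPA18 read 1.75 to 2.13, under the lower quartile of all 6 arrays. The root-expressed gene PYK10 read 12.14 and 12.26 on the replicate 1 arrays and 8.58 to 9.21 on the other 4. Median signal was 5.38 and 5.47 on the replicate 1 arrays and 4.44 to 4.50 on the others. EBE itself was 4.29 and 4.23 log2 units above WT in pairs 1 and 2, the arrays of one replicate number, and 0.17 above in pair 3. The array labelled EBE-XVE replicate 3 thus did not show the raised EBE of its label.

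AT1G51850 was high in replicate 1 of both genotypes, intermediate in EBE-XVE replicate 2 and low elsewhere. Its log2 signal in EBE-XVE was 9.51, 7.35 and 2.95 in replicates 1, 2 and 3. In WT it was 8.68, 4.86 and 3.95. The values of the genotypes interleaved, with EBE-XVE replicate 1 highest and the array labelled EBE-XVE replicate 3, which lacked raised EBE, lowest. The mean of EBE-XVE was 6.603 ± 3.34 (SD, n = 3) and that of WT 5.83 ± 2.51 (SD, n = 3). Their difference of 0.78 was smaller than the SD within either group. These are whole shoots, in which fewer cells of a type and less RNA per cell cannot be told apart.

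AT3G46280 followed nearly the same order. Its log2 signal in EBE-XVE was 11.50, 9.84 and 4.20 in replicates 1, 2 and 3. In WT it was 11.63, 7.56 and 7.33. The replicate 1 arrays stood highest again, EBE-XVE replicate 2 came next, and the array labelled EBE-XVE replicate 3 lay 3.13 below the next array. The mean of EBE-XVE was 8.51 ± 3.82 (SD, n = 3) and that of WT 8.84 ± 2.42 (SD, n = 3). Their difference of -0.33 was also smaller than the SD within either group.

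**Figure D1:**
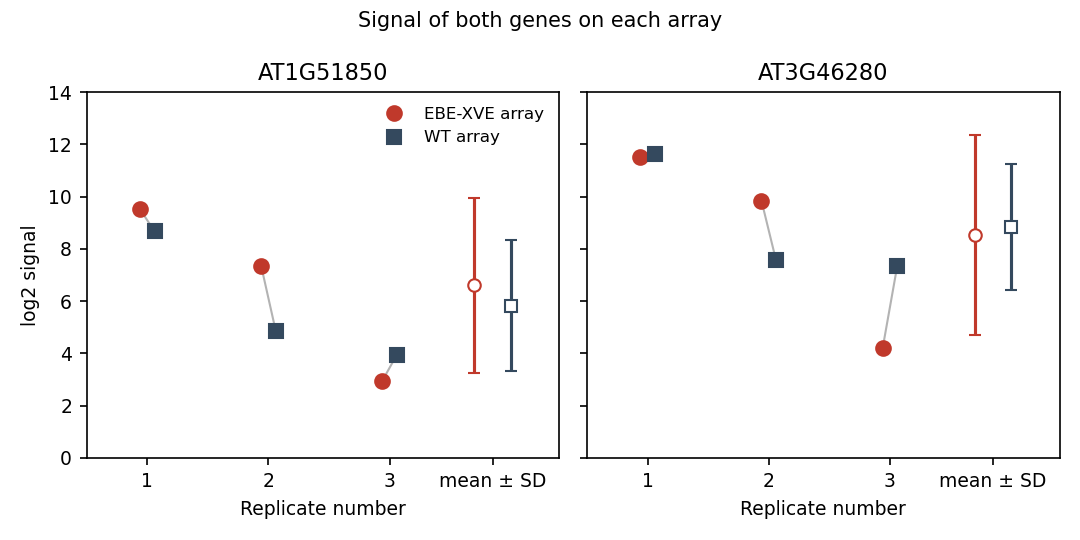
Log2 signal of AT1G51850 and AT3G46280 on each of the 6 arrays by replicate number, with grey lines joining arrays of one number, and group means ± SD (n = 3, open symbols). Replicate 1 is highest in both genotypes, EBE-XVE lies above WT in replicate 2 and below it in replicate 3, and the SD bars of the groups overlap widely.

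The order of the arrays was EBE-XVE 1, WT 1, EBE-XVE 2, WT 2, WT 3 and the array labelled EBE-XVE 3 for AT1G51850. It differed for AT3G46280 in the top 2 arrays alone, which were 0.13 log2 units apart there. Other neighbours in that order were also close, with 0.23 between WT 2 and WT 3 for AT3G46280. The widest steps for AT1G51850 were 2.49 between EBE-XVE 2 and WT 2 and 1.33 between WT 1 and EBE-XVE 2. Each step lies between single arrays, so it has no replicate spread of its own. In 1677 probe sets (7.37%) the replicate 1 arrays were likewise highest, EBE-XVE replicate 2 next and the array labelled EBE-XVE replicate 3 lowest, and among the 8760 probe sets that spanned at least 1 log2 unit the share was 14.9%.

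Few probe sets varied as widely. From the lowest to the highest array AT1G51850 spanned 6.56 log2 units and AT3G46280 7.43, where the median probe set spanned 0.74. Wider spans were found for 25 and 9 probe sets. Much of the width was present in the wild type alone, where AT1G51850 spanned 4.73 and AT3G46280 4.30 log2 units. Within EBE-XVE the spans were 6.56 and 7.30.

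The step from replicate 1 to the others was of like size in both genotypes. Replicate 1 exceeded the mean of replicates 2 and 3 by 4.36 log2 units in EBE-XVE and 4.27 in WT for AT1G51850. For AT3G46280 it did so by 4.48 and 4.19. The median over all probe sets was 0.29 in EBE-XVE and 0.25 in WT, and 15.7% of all probe sets were at least 2-fold higher in replicate 1 in both genotypes. After quantile normalization the steps were 3.73 and 3.54 for AT1G51850 and 3.81 and 3.59 for AT3G46280, beside medians of -0.05 in both genotypes. Median centring gave 3.46 and 3.26, and 3.57 and 3.18, beside medians of -0.62 and -0.76. PYK10 and the array medians were raised on the same 2 arrays. The summed linear signal of the 3 measured root markers was 12.15 and 12.26 on the log2 scale in replicate 1 and 8.61 to 9.23 on the others, which is nearly all PYK10. The other measured root markers, EXPA7 and EXPA18, lay under the lower quartile on every array, too dim to show whether root RNA differed. Their steps were -0.36 and -0.38 for EXPA7 and -0.03 and -0.05 for EXPA18 in EBE-XVE and WT. The part of PYK10 and of the array medians in the step was not tested.

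The comparison the series was designed for, EBE-XVE against WT, gave differences of both signs over the 3 pairs for each gene. AT1G51850 differed by 0.83, 2.49 and -0.995 log2 units in pairs 1, 2 and 3, and AT3G46280 by -0.13, 2.28 and -3.13. In pair 2 EBE-XVE was 5.60-fold and 4.84-fold above WT, and in pair 3 it was 1.99-fold and 8.77-fold below. In pairs 1 and 2, where EBE was raised, AT1G51850 was above WT both times, and AT3G46280 was above it in pair 2 alone. Both genes were below WT in pair 3, where EBE differed by 0.17. The pair 3 value of AT1G51850 rests on dim arrays, at 2.95 and 3.95 beside lower quartiles of 2.496 and 2.57. Quantile normalization and median centring left the sign of all these differences as it was, with pair 3 at -1.08 and -0.96 for AT1G51850.

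A 2-fold difference within one pair was uncommon among all probe sets, since 1.52% were at least 2-fold higher in pair 2 and 1.21% at least 2-fold lower in pair 3. In the other direction the shares were 0.659% and 1.04%, and in pair 1 they were 1.41% higher and 3.53% lower. Both in the same probe set occurred 78 times (0.343%), with AT3G46280 among them and AT1G51850 just outside, at -0.9953 in pair 3. The reverse, lower in pair 2 and higher in pair 3, occurred 13 times.

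Across the table the limma fit at an adjusted p under 0.05 called 0 probe sets (0%) in either direction, so neither gene was called. At an unadjusted p under 0.05 there were 79. EBE itself, 2.90 above WT in the group means, was not called either. The absence of a call therefore does not show that a gene was unchanged. The 3 EBE-XVE values lay wholly on one side of the 3 WT values for 1.38% of probe sets, and both genes lay outside that share. The difference between group means depended on single arrays. That of AT1G51850 was -0.68 without EBE-XVE replicate 1, 2.60 without the array labelled EBE-XVE replicate 3, 2.20 without WT replicate 1 and -0.17 without WT replicate 3. That of AT3G46280 was 1.83 without the array labelled EBE-XVE replicate 3, 1.07 without WT replicate 1 and -1.82 without EBE-XVE replicate 1. Without 1 of the replicate 1 arrays the other kept its high level in 1 group.

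**Figure D2:**
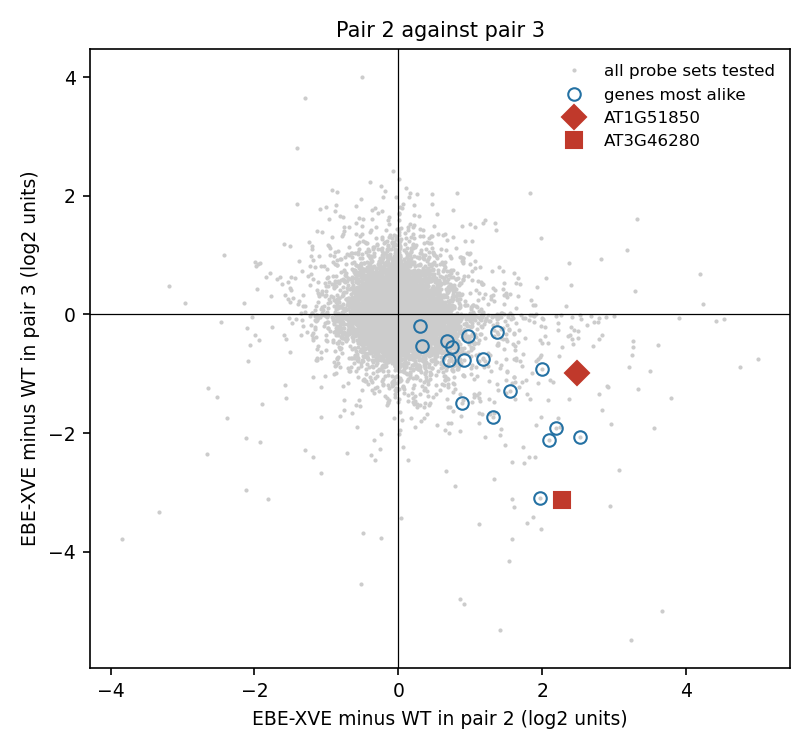
Difference EBE-XVE minus WT in pair 2 (x) and pair 3 (y), in log2 units, for all 22746 probe sets (grey), both genes (red) and the 17 genes most alike (blue circles). Both genes lie at the lower right, above WT in pair 2 and below it in pair 3. AT3G46280 is among the 78 probe sets that passed 2-fold in each, and AT1G51850 lies just outside, at -0.9953 in pair 3.

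The signals of both genes ran together over the arrays. Pearson's r was 0.97 and Spearman's rho 0.94 over 6 arrays, which share replicate numbers in pairs. Without EBE-XVE replicate 1 and the array labelled EBE-XVE replicate 3, the 2 arrays farthest from the median of AT1G51850, r was 0.99. Over the 4 arrays of replicates 2 and 3 it was 0.93. With any 1 array left out it was 0.96 to 0.98. The measure was part of how the genes were chosen, and many other probe sets shared the pattern, with 602 others (2.65%) at r of at least 0.9 with both genes.

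The genes most like them were taken among the named probe sets that spanned at least 1 log2 unit. Closest to AT1G51850 was AT5G52810 (r = 0.998), which encodes SARD4, a reductase of pipecolic acid synthesis. It read 8.39, 7.64 and 6.07 in EBE-XVE and 7.98, 6.66 and 6.43 in WT. AT4G38560 (r = 0.997) differed by 0.39, 1.17 and -0.76 in pairs 1, 2 and 3. The LRR I kinase gene AT1G51820 followed (r = 0.996), with 0.36, 1.37 and -0.29. The GARP-type transcription factor gene AT4G37180, the zinc-finger factor gene AT3G45260 and the kelch-repeat gene AT3G27220 had r of 0.99 each. AT3G27220 had wide differences among these, 0.69, 2.00 and -0.93.

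Closest to AT3G46280 were AT4G27450 and AT5G35460 (r = 0.998 each), with -1.49 and -0.53 in pair 3. Next came AT1G52200 (r = 0.99), a gene of the PLAC8 family, and a pair of chitinase genes. AT4G01700 read 9.19, 7.67 and 4.74 in EBE-XVE and 9.24, 6.35 and 6.47 in WT. CHI (AT2G43570) read 8.92, 7.51 and 2.95 in EBE-XVE and 9.71, 5.54 and 6.05 in WT. Its differences of -0.79, 1.97 and -3.09 were near those of AT3G46280. AT4G12490, a lipid-transfer protein gene, differed by -0.42, 2.10 and -2.12.

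Genes alike to both at once were led by AT3G13910, at an r of 0.99 with each. AT3G47480, a calcium-binding EF-hand protein gene, spanned 6.11 log2 units and differed by 0.56, 2.53 and -2.06. AT4G22470, a lipid-transfer family gene, read 12.05, 9.75 and 5.68 in EBE-XVE and 11.24, 7.56 and 7.60 in WT. The transporter gene AT5G52450 and RING1, a ubiquitin ligase gene of cell death control, spanned 1.86 and 2.60. AT1G52200 completed the group. All 17 of these genes were above WT in pair 2 and below it in pair 3, a direction that the choice by likeness largely fixes. The lower r with the 2 genes was at least 0.9 for 15 of the 17 after quantile normalization and for 11 after median centring. With median centring it was 0.10 for AT5G35460 and 0.14 for AT4G37180. Both had narrow spans, of 1.14 and 1.08.

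**Figure D3:**
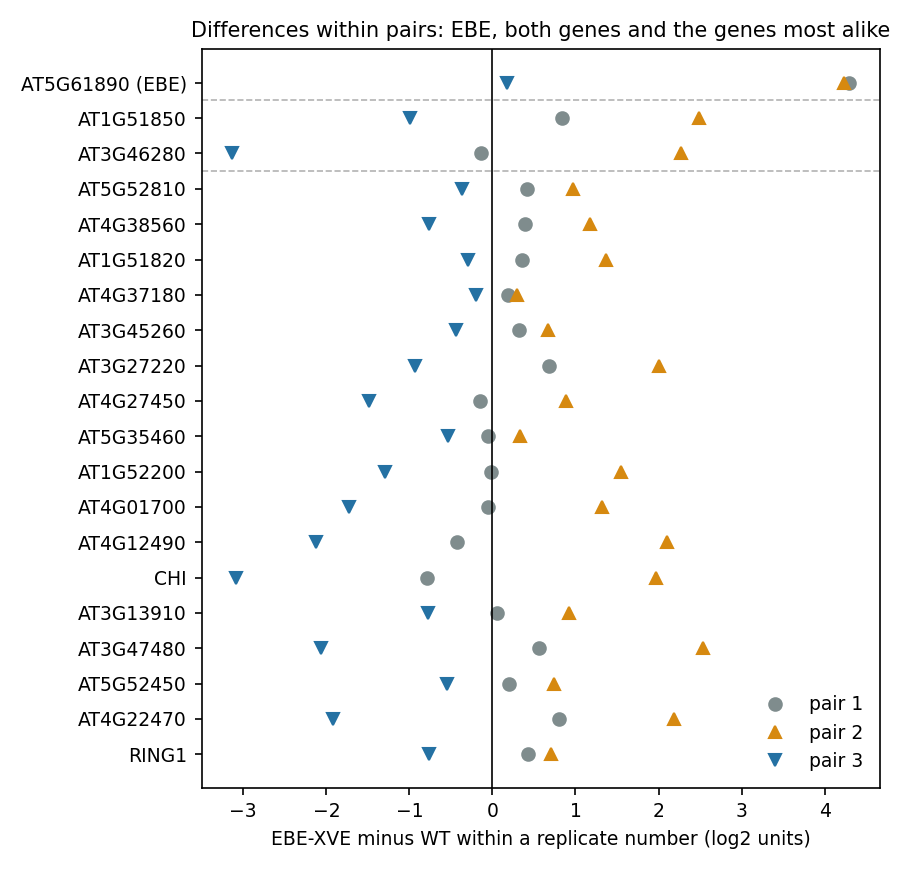
Difference EBE-XVE minus WT within pairs 1, 2 and 3 (log2 units) for EBE, for AT1G51850 and AT3G46280, and for the 17 genes most alike. EBE is high in pairs 1 and 2, whereas both genes and those alike are above WT in pair 2, below it in pair 3 and near 0 or of either sign in pair 1.

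Of 46 LRR I receptor kinase genes listed, 36 were measured, and 0 were called higher or lower. Beside AT1G51850, 9 of 35 (25.7%) spanned at least 1 log2 unit, against 38.5% of all probe sets, and 25 of the remaining 26 averaged under 3 log2 units. The median difference over these 35 was 0.04, 0.02 and -0.10 in pairs 1, 2 and 3, beside 0.03, 0.01 and -0.05 over all probe sets. In pair 3, 33 of the 35 were below WT, but so were 71.6% of all probe sets. With 25 of the 35 under 3 log2 units on average, this count mostly gives the sign of small differences. At least 2-fold higher in pair 2 were 4 of the 35 (11.4%), against 1.52% of all probe sets. The list was chosen with earlier results of these data known, so this share does not test for enrichment. At least 2-fold higher in replicate 1 of both genotypes were 5 of 35 (14.3%), near the 15.7% of all probe sets.

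The 4 genes at least 2-fold higher in pair 2 all belonged to the tandem cluster on chromosome 1 that holds AT1G51850. So did the 5 at least 2-fold higher in replicate 1 of both genotypes. Of that cluster 9 other genes were measured. AT1G51790 read 7.71, 5.88 and 3.37 in EBE-XVE and 7.25, 4.05 and 4.80 in WT, and was the only one of the 35 at least 2-fold lower in pair 3 (-1.43). AT1G51820 read 6.43, 5.14 and 3.10 against 6.07, 3.77 and 3.39. In both genes, as in AT1G51850, EBE-XVE replicate 2 lay between the high replicate 1 arrays and the rest. The order below it was the same for AT1G51820, whereas WT 3 lay above WT 2 for AT1G51790. AT1G51890 read 5.91, 4.995 and 2.53 against 7.57, 2.99 and 3.00, so that it was 1.66 below WT in pair 1 and 2.00 above it in pair 2. AT1G51830 read 6.80, 4.20 and 2.92 against 7.10, 3.01 and 3.08.

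Other genes of the cluster departed from this pattern or were dim. AT1G51860, the next gene to AT1G51850, read 5.60 and 5.57 in replicate 1 and 2.71 to 2.84 on all other arrays, and so differed by 0.05 in pair 2. On the other side, AT1G51840 was dim at 2.40 to 3.13 but kept the pattern, at an r of 0.98 with AT1G51850. AT1G51805, named after its values were seen, read 7.51, 7.91 and 8.62 in EBE-XVE and 8.33, 8.17 and 8.46 in WT (r = -0.78 with AT1G51850). Its step from the other replicates to replicate 1 was -0.76 in EBE-XVE and 0.02 in WT. Within 5 annotated genes of AT1G51850 the remaining measured gene, AT1G51900, read 2.46 to 2.56. Whether probes of one tandem copy also bind RNA of another was not tested.

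**Figure D4:**
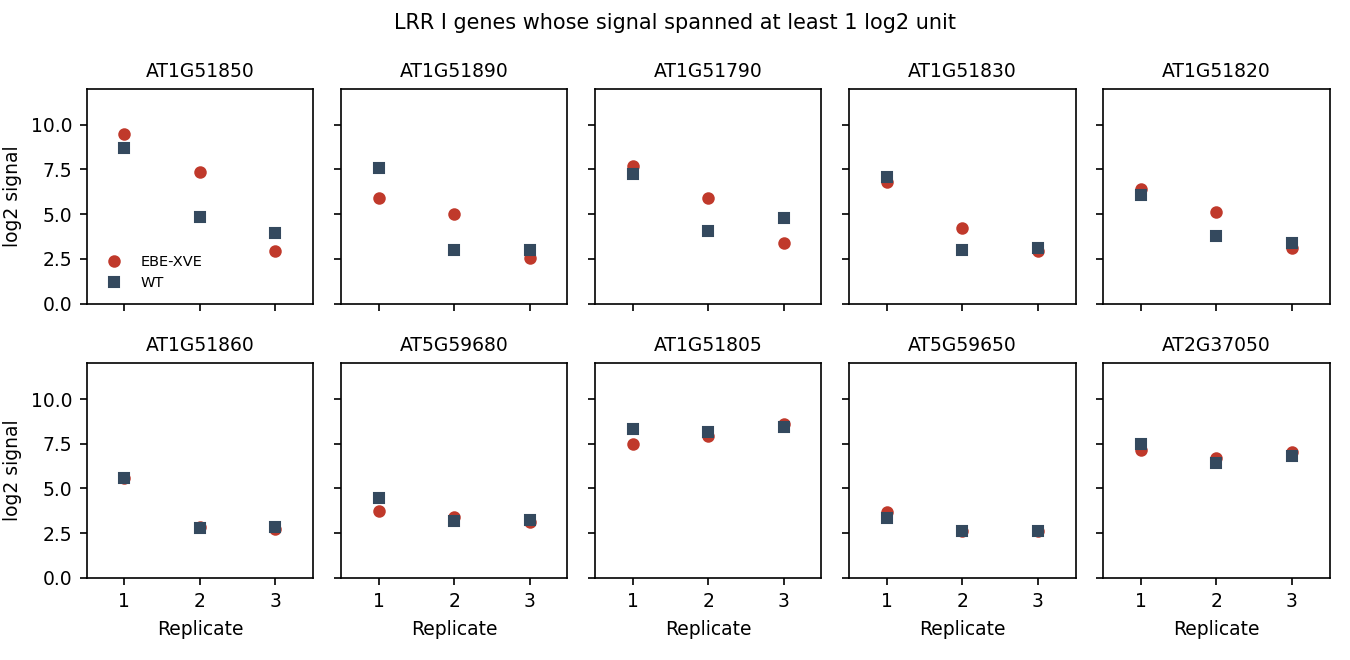
Log2 signal by replicate number in EBE-XVE (circles) and WT (squares) for AT1G51850 and the 9 other LRR I genes that spanned at least 1 log2 unit. AT1G51790, AT1G51820, AT1G51830 and AT1G51890 are higher in EBE-XVE than in WT in replicate 2, as AT1G51850 is, whereas AT1G51860 is raised in replicate 1 alone.

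Of the 10 annotated genes around AT3G46280 2 were measured, AT3G46270 at 1.77 to 1.90 and AT3G46240 at 2.13 to 2.54, both related to it by their malectin-like domain. Both lay under the lower quartile on all 6 arrays, too dim to compare with it in height. The r of AT3G46240 was 0.87 with AT1G51850 and 0.84 with AT3G46280, and that of AT3G46270 was -0.75 and -0.67. AT3G46240 was 0.03, 0.01 and -0.08 from WT in the 3 pairs.

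Malectin-like receptor kinases of the CrRLK1L group, which sense the state of the cell wall, differed little within pairs. Of 17 listed 12 were measured, 0 were called, and none differed 2-fold within any pair. Their medians were 0.01, 0.02 and -0.06 in pairs 1, 2 and 3. At least 2-fold higher in replicate 1 of both genotypes were 2 of the 12, AT5G39030 among them, beside 15.7% of all probe sets. An r of at least 0.9 with both AT1G51850 and AT3G46280 was found for 1 of the 12, beside 2.65% of all other probe sets. AT5G39030 spanned 2.05 log2 units, with 5.48 in WT replicate 1 and 3.43 on the array labelled EBE-XVE replicate 3. THE1 was 0.77 above WT in pair 3, and AT2G23200 was 0.39 above it, while AT2G39360 was 0.39 below.

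Genes of immune signalling followed the 2 genes in part, and 0 of those measured were called. Of 16 immune receptors and co-receptors 3 had a named probe set. SD1-29, also known as the receptor LORE, had r of 0.91 and 0.90 with AT1G51850 and AT3G46280 and differed by 0.24, 0.51 and -0.56 in pairs 1, 2 and 3. EFR, the receptor for bacterial elongation factor Tu, differed by 0.54, 0.39 and -0.11, and BIK1, a kinase downstream of such receptors, by 0.53, -0.08 and 0.74.

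Of 19 genes known to respond to microbial patterns 5 were measured, and their medians were -1.30, 1.98 and -0.36 in pairs 1, 2 and 3. In pair 1, 4 of the 5 were at least 2-fold lower in EBE-XVE, against 3.53% of all probe sets. In pair 2, 3 of the 5 were at least 2-fold higher, against 1.52%. The list was chosen with earlier results of these data known, so these shares do not test for enrichment. PUB22, counted among the 4 in pair 1, was dim, at 2.39 to 2.44 outside WT replicate 1. It differed by -1.06, 0.01 and 0.01. The transcription factor gene WRKY53 read 6.53, 6.66 and 3.93 in EBE-XVE and 7.96, 4.28 and 4.29 in WT, an r of 0.91 and 0.90 with the 2 genes. The peroxidase gene AT5G39580 differed by -1.30, 1.98 and -0.68, with r of 0.94 for both. WRKY22 was also above WT in pair 2 (2.41) but lacked the high replicate 1, where it read 4.13 and 4.12. AT1G26380 was high in WT replicate 1 alone, at 9.50, and read 2.28 to 2.86 on the other arrays.

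Of 24 salicylate genes 2 were measured, SAG101 at 0.54, 1.37 and -0.04 and GRX480 at -0.37, -0.29 and 1.72 in pairs 1, 2 and 3. GRX480 thus peaked on the array where both receptor kinase-related genes were lowest. Of 10 jasmonate genes 3 were measured, and all 3 were below WT in every pair, without a call. Of all probe sets, 28.2%, 32.4% and 71.6% were below WT in pairs 1, 2 and 3. Their median differences were only 0.03, 0.01 and -0.05, so many of these signs rest on differences near 0. The 3 measured shoot markers, bright on every array, were below WT in pairs 1 and 2 and above it in pair 3. The share of probe sets below WT in every pair was not counted. PDF1.2, a defensin gene, was lowest on that same array at 4.70 and differed by -1.09, -0.51 and -4.55. THI2.1 differed by -5.42, -3.32 and -3.33, and OPCL1 by -0.44, -0.05 and -0.08. None of the 25 listed cysteine-rich receptor kinase genes had a named probe set.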

How the data were processed

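Per the submitters' processing notes, which give neither versions nor roles, GCRMA and RMA were used. The authors deposited 1 value per probe set and array, read here as log2 signal from its range, since no source states the base. Of 22810 probe sets, 64 controls were left out. Gene names came from the platform annotation, and gene order from a RefSeq table (TAIR10.1). A single symbol was listed for 13513 probe sets, several for 503 and none for 8730, and 13436 matched a locus. In lists, each locus was represented by its brightest probe set.

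The genotypes were compared with limma 3.58.1 (R 4.3.3, lmFit, eBayes with trend, group as the only term, Benjamini-Hochberg, 2-sided). The code was tried on simulated data without a step between replicates. That trial does not show what the fit can call on these arrays. The number of arrays limits the precision. Titles call the replicates biological. Nothing says they came from separate cultures, so p-values may measure technical spread. Deviations from group means correlated at 0.79, 0.54 and 0.58 in pairs 1, 2 and 3. Unlike numbers 2 and 3 correlated as closely (0.55 and 0.60), so these values do not bear out the matching of pairs 2 and 3. Those pairs follow the replicate numbers of the titles alone.

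Named genes were the 2 genes, EBE, the 6 most alike to each and to both by Pearson's r, up to 4 per list with the widest span, and measured genes within 5 of either gene. AT1G51805 and PUB22 were named outside this rule. Members and lists were chosen with earlier results of these data known. Alternatives were a replicate block, each array left out, the dimmest 40% left out, eBayes without trend, and quantile or median scaling. No gene or protein sequence was used here.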

Additional observations from a re-analysis of the deposited data

How the results depend on the processing

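No probe set was called in either direction (0 and 0) in any of 11 alternatives, the replicate block included, with 42 to 462 probe sets at an unadjusted p under 0.05. The difference of AT1G51850 was 0.78 with the replicate block, 0.70 with quantile normalization and 0.80 with median centring, and that of AT3G46280 was -0.33, -0.30 and -0.30. Each moved by less than 1 SD in every alternative but changed sign when single arrays were left out, over -0.68 to 2.60 and -1.82 to 1.83. The replicate block changed no call. The correlation of the 2 genes was 0.97 and 0.95 under both scalings and 0.96 to 0.98 with each array left out. The repeat of the likeness under other scalings was chosen after seeing the data. Over replicates 2 and 3 only, 15 of the 17 genes alike kept a lower r of at least 0.9. Signal over background was not measured, so what dim probe sets could show is unknown.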

Other observations

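A profile opposite to that of both genes was rarer than a like one, on arrays where replicate 1 was brighter at large. At least 2-fold higher in replicate 1 of both genotypes were 3563 of all probe sets, and 280 were at least 2-fold lower. The part of that shift in the counts below was not tested. Among 4712 other named probe sets that spanned at least 1 log2 unit, 249 (5.28%) had r of at least 0.9 with both AT1G51850 and AT3G46280, and 50 had r of -0.9 or lower with both.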
